A study of Mus musculus with 10 samples.

Results

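The 37 genes described here encode the machinery of fatty acid oxidation (21 genes) and of the tricarboxylic acid (TCA) cycle with its entry steps (16 genes). They were taken as a list of gene symbols by pathway, chosen with earlier results of these data known, and all 37 were among the 24421 symbols counted. Total RNA was sequenced from inguinal subcutaneous white fat of wild-type (WT) C57BL/6J mice 70 days after electron irradiation (33.3 Gy) of the left hindlimb. Irradiation was in FLASH mode, which delivers radiation at an ultra-high dose rate (4 libraries), or in conventional mode, abbreviated CONV (3 libraries), and sham mice received none (3 libraries). The comparison asks how this fat depot differs after the same dose given in either mode. Libraries are numbered as in the labels, which do not say that each came from a separate mouse, so p-values measure the spread between these libraries. The ages of the mice are not in the labels, and every library carries the same batch number. All 37 genes passed the filter on low counts among 15266 genes tested.

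Fatty acids enter the mitochondrial matrix as carnitine esters and are shortened there in repeated rounds of dehydrogenation, hydration, dehydrogenation and thiolysis, which release acetyl-CoA. The TCA cycle oxidises that acetyl-CoA, and the acetyl-CoA made from pyruvate, and passes electrons to the respiratory chain. White fat mainly stores and releases fatty acids and uses the cycle also to make citrate for lipid synthesis, whereas brown and beige fat burn fatty acids for heat. PPAR alpha, a nuclear receptor activated by fatty acids, is a known activator of many genes of the pathway.

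Since most of the 37 genes ranked the libraries in a shared order, the promoters of 4 of them are shown. Cpt1a went against that order, Pcx followed it with the highest level, Ehhadh was the member with the smallest adjusted p for CONV against sham in the fit of 8 libraries, and Ppara encodes the receptor. The sequences come from RefSeq (GRCm38.p6) and run 5′ to 3′ along the gene. Those of Cpt1a, Pcx and Ehhadh end before the first annotated exon they meet. The Ppara stretch was instead cut around its NRF1 site. Annotated Ppara exons overlap the 250 bases before its start by 75 and 83 bases, so the stretch may be exonic. Cpt1a lies at chr19:3323051-3323284 (+ strand), Pcx at chr19:4510222-4510471 (+ strand, the first of 2 starts in the table), Ehhadh at chr16:21787835-21788084 (- strand), and the Ppara stretch of 30 bases at chr15:85735735-85735764 (+ strand). Capitals mark the GC box (GGGCGG), the CCAAT box (CCAAT), the nuclear receptor half-site (AGGTCA) and the NRF1 site (GCATGCGC and the full palindrome around it), or their reverse complements.
Cpt1a: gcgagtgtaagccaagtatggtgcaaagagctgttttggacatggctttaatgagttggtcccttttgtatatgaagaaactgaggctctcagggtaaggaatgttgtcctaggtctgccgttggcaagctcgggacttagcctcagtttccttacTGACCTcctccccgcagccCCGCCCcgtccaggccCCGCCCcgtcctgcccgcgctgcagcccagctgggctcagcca
Pcx: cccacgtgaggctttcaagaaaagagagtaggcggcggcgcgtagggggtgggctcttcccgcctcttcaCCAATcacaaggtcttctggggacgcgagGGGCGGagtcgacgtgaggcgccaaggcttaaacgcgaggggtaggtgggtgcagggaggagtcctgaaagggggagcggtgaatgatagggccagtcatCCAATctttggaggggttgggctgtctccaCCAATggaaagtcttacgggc
Ehhadh: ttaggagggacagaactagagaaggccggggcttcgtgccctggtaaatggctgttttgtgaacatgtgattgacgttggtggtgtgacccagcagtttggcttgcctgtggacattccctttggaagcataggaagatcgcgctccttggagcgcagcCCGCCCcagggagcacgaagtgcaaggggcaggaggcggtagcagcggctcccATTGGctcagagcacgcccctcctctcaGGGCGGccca
Ppara: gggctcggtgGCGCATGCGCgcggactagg
Of the 37 genes, 33 had a promoter in the RefSeq table, which covers 250 bases before to 50 bases after the start. Both strands were searched. The GC box was found in 24 of the 33 (72.7%), against 38.2% of the 27025 symbols in the table. The CCAAT box was in 16 (48.5%, against 41.1%) and the half-site in 9 (27.3%, against 18.1%). The full NRF1 palindrome was in Etfdh and Ppara (6.06%, against 1.07%), and its shorter form GCATGCGC, which lies within it, in 5 (15.2%, against 3.05%). The direct repeat of the half-site with 1 base between, the element that PPAR receptors bind, was in none of the 33 and in 0.0481% of all symbols. These are matches of letters in a window, not measured binding.

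Each library had 22.4 M to 36.0 M gene counts (M, 1e6). FLASH 3 and CONV 2 stood apart from the other 8 libraries. Their mean log2 level of 12 B cell markers lay 8.17 and 8.48 above the highest sham library, and the summed level of those markers was 2834 and 3470 CPM, against 9.54 to 27.1 CPM elsewhere (CPM, counts per 1e6 gene counts after TMM scaling). Adipocyte markers, of which 17 of 18 passed the filter, summed to 7897 and 5488 CPM in the same pair, against 32290 to 47090 CPM in the other 8. T cell markers, of which 11 of 11 passed, summed to 1080 and 742 CPM in the pair, against 9.18 to 17.8 CPM in the other 8. CPM is a share of all gene counts. In bulk tissue, fewer adipocytes, less RNA per adipocyte and added RNA of other cells therefore cannot be told apart. Each result is therefore given with all 10 libraries and with these 8, which leave 3 sham, 3 FLASH and 2 CONV libraries. Skeletal muscle markers, of which 21 of 22 passed, summed to 84.1 to 3994 CPM in sham, 84.0 to 2235 CPM after FLASH and 71.6 to 10320 CPM after CONV, with the highest sum in CONV 1. Brown and beige fat markers, of which 10 of 13 passed, summed to 167 to 296 CPM in sham, 80.3 to 152 CPM after FLASH, and 125, 75.3 and 584 CPM in CONV 1 to 3. Their defining gene Ucp1, the uncoupling protein of thermogenic fat, was at 3.95, 0.0651 and 0.0336 CPM in sham, 0, 0.0366, 0.116 and 0.124 CPM after FLASH and 0, 0.134 and 20.6 CPM after CONV, so it was at 0 in FLASH 1 and CONV 1.

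No gene of fatty acid oxidation or of the TCA cycle passed the test in any comparison at an adjusted p of 0.05, and neither did any other of the 15266 genes (0%, edgeR quasi-likelihood test, all 10 libraries). With FLASH, 36 of the 37 genes had a negative fold change against sham, as had 45.9% of all genes. The median log2 fold change was -0.26, against 0.03 for all genes, and no member had an unadjusted p under 0.05 (0.648% of all genes). With CONV, 19 were negative and 18 positive, where 43.1% of all genes were negative, with a median of -0.01 (all genes 0.08), and again none had an unadjusted p under 0.05 (5.82% of all genes). FLASH against CONV gave 32 negative values (55.8% of all genes), a median of -0.27 (all genes -0.04) and 1 member with an unadjusted p under 0.05, Cpt1b (2.97% of all genes). DESeq2 and limma voom also passed none of the 37 with these libraries. Both irradiated groups are set against the same 3 sham libraries, so these contrasts share them. A p above the threshold does not show that levels were alike.

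Without FLASH 3 and CONV 2, the FLASH fold changes centred near 0 and most CONV fold changes were positive. FLASH against sham then had a median of -0.06, with 24 negative and 13 positive values (51.5% of all genes negative) and none with an unadjusted p under 0.05 (2.52% of 15252 genes). CONV against sham had a median of 0.36, with 33 of 37 positive (48.7% of all genes were negative). At an unadjusted p under 0.05, 6 members were higher and 1 lower (7.02% and 6.24% of all genes), which is 18.9% of the members against 13.3% of all genes. FLASH against CONV had a median of -0.41 with 33 negative values (53.1% of all genes), and 12 members (32.4%) were lower at an unadjusted p under 0.05, against 13.7% of all genes in either direction and 6.9% in that direction. None passed after adjustment in edgeR, where 0%, 0.0393% and 0.0131% of all genes passed in these contrasts, and none did in limma voom. DESeq2 passed 663 of 15252 genes in CONV against sham, among them 1 member, Ehhadh (DESeq2, adjusted p = 0.0438). In FLASH against CONV it passed 667, among them 3 members, Cpt1b, Ehhadh and Sucla2 (DESeq2, lowest adjusted p = 0.0260).

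**Figure D1:**
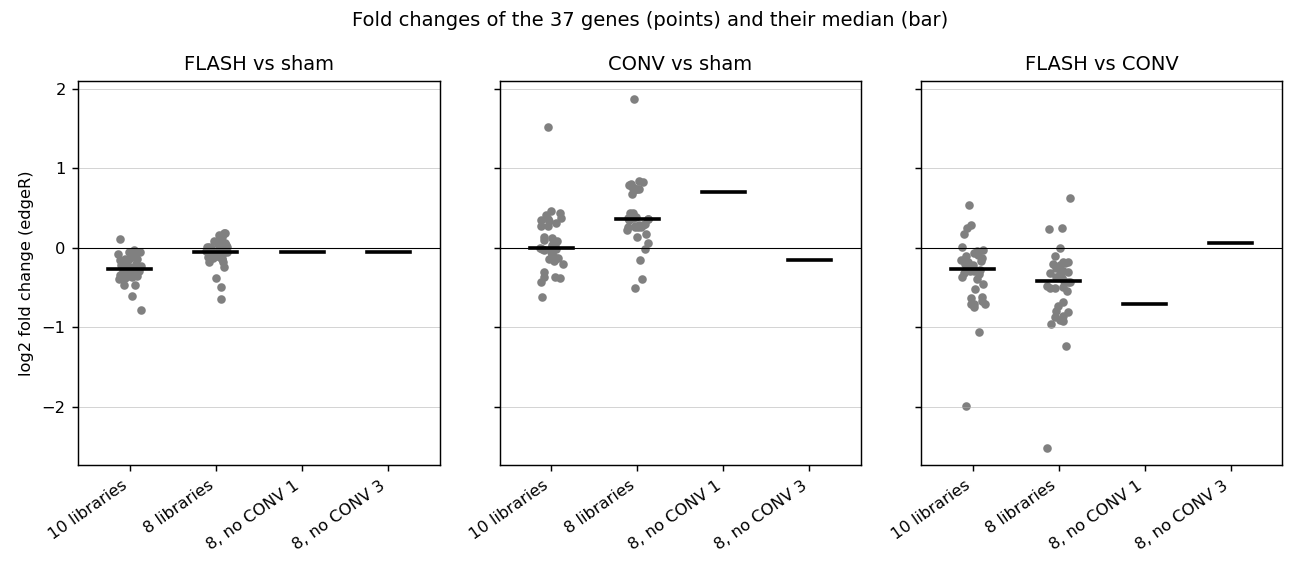
Log2 fold change (edgeR) of the 37 genes in the 3 comparisons, each point a gene and each bar the median, with all 10 libraries and with the 8 left without FLASH 3 and CONV 2; the 2 positions at the right of each panel give only the median after also leaving out CONV 1 or CONV 3. The CONV medians move from 0.70 without CONV 1 to -0.16 without CONV 3.

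The median CONV fold change with the 8 libraries rested on 1 library. CONV 3 had the highest level of all 10 libraries for 33 of the 37 genes, a share that was not counted among all genes. It lay above every sham library for those 33, as it did for 37.5% of all genes. Its median ratio to the sham mean was 1.66. The exceptions were Cpt1a and Idh2, below every sham library (35% of all genes), and Etfa and Acot2, within the sham range. CONV 1, the other CONV library among the 8, had a median ratio of 0.904, with 4 genes above and 12 below the sham range (28.5% and 28.3% of all genes). With the 8 libraries, leaving out CONV 3 as well gave a CONV against sham median of -0.16 and a FLASH against CONV median of 0.06. Leaving out CONV 1 in its place gave 0.70 and -0.70. Each of these fits gives the single remaining CONV library the spread of the other groups, so only the medians are given. CONV 3 was also the library with the highest brown and beige marker level, 1.81 log2 units above the sham mean, and sham 1 came next at 0.58. Sham 1 was in turn the highest sham library for 33 of the 37 genes, and this share among all genes was not counted either. A fit of the 8 libraries with the brown and beige marker level as a covariate was chosen after seeing the data. Its medians were 0.27 for FLASH against sham, 0.11 for CONV against sham and 0.18 for FLASH against CONV. None of the 37 passed. The covariate was at -0.65 in CONV 1 and 1.81 in CONV 3, so this fit cannot tell the marker level from CONV 3 itself. Ppargc1a, one of those markers, is itself a coactivator of the pathway. Other marker lists also differed between libraries. Macrophage markers (11 of 11 passed the filter) were highest in CONV 1, at 2870 CPM, against 912 to 1792 CPM elsewhere. Fibroblast and progenitor markers (10 of 10 passed) summed to 3998 CPM in CONV 3 and 9100 CPM in CONV 1. Sham had 5447 to 8291 CPM, and the FLASH libraries other than FLASH 3 had 4591 to 6469 CPM. FLASH 3 and CONV 2 had 1763 and 1874 CPM. Epithelial markers (5 of 10 passed) summed to 32.7 CPM in CONV 3, 9.54 to 18.2 CPM in sham, 10.2 to 85.2 CPM after FLASH and 20.9 and 19.9 CPM in CONV 1 and 2. Red cell markers (2 of 6 passed) summed to 27.1 CPM in CONV 3, 7.19 to 9.42 CPM in sham, 2.35 to 19.4 CPM after FLASH and 128 and 2.92 CPM in CONV 1 and 2. The 4 globin genes among the red cell markers were at 0 in every library. Krt5, an epithelial keratin, was at 0 in sham 3 and FLASH 1, at 3.94 CPM in CONV 3 and highest in FLASH 4. Rn45s, the ribosomal RNA precursor, took 5.27% of gene counts in CONV 3, 7.51% and 8.39% in FLASH 3 and CONV 2, and 1.79% to 3.27% in the other 7. The part of these in the results was not tested.

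The pair with high B cell markers was low throughout. FLASH 3 lay below every sham library for 35 of 37 genes (42.6% of all genes) with a median ratio to the sham mean of 0.426. CONV 2 lay below for 36 of 37 (43.1% of all genes), with a median ratio of 0.382. The adipocyte markers had a mean log2 difference from sham of -2.10 and -2.69 in these libraries, and the 37 genes one of -1.21 and -1.32. Cpt1a in FLASH 3 and Cpt1b in both were the values that stayed within the sham range. The other FLASH libraries lay nearer to sham, and few of the 37 genes lay above the sham range in FLASH 2 and FLASH 4. FLASH 1 had 8 of the 37 genes above and 3 below the sham range (27.3% and 27.5% of all genes), with a median ratio of 1.07. FLASH 2 had 2 above and 8 below, at 0.947. These are 5.41% and 21.6% of the 37 genes, against 21.9% and 22.4% of all genes, so the share below was near that of all genes. FLASH 4 had 0 above and 14 below, at 0.864. The 14 are 37.8% of the 37 genes, where 23.9% of all genes lay above and 22.8% below. The median coefficient of variation of the 37 genes was 19.7% in sham, 35.6% after FLASH, 11.0% after FLASH without FLASH 3, and 68.2% after CONV.

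**Figure D2:**
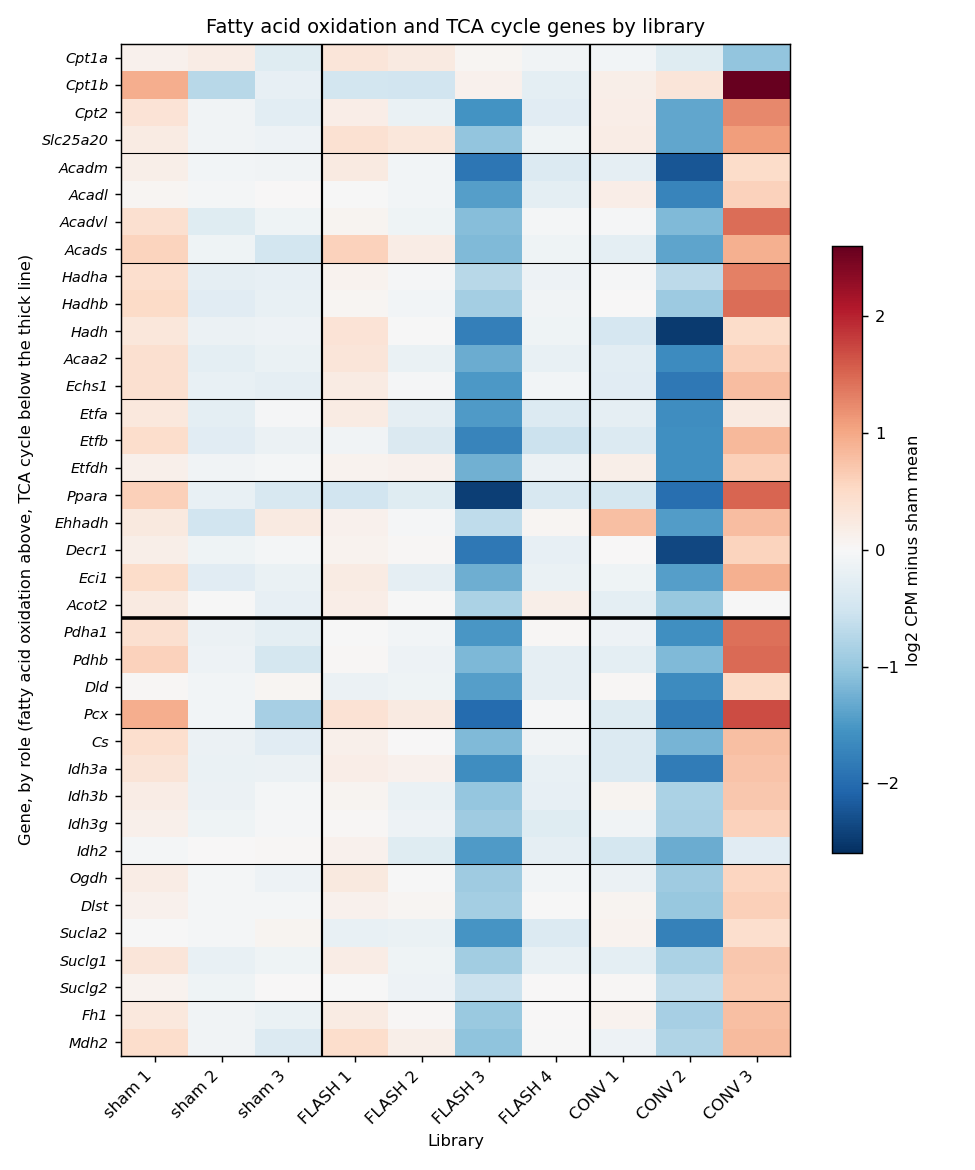
Log2 CPM of each of the 37 genes minus its sham mean (colour) with genes in rows by role and libraries in columns. FLASH 3 and CONV 2 are low in nearly every row, CONV 3 is the highest in all but 4, and Cpt1a and Idh2 are below every sham library in CONV 3.

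**Figure D3:**
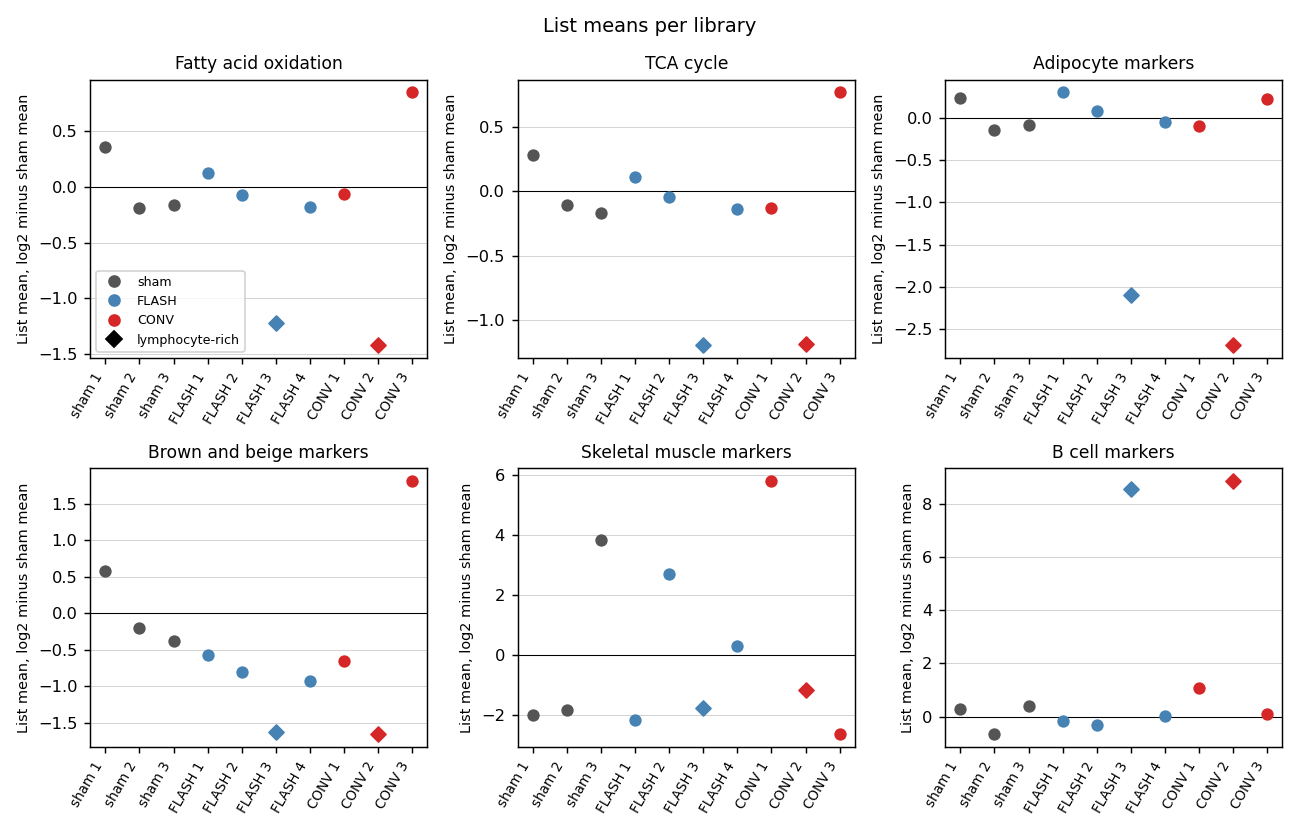
Mean log2 CPM minus the sham mean, per library, for the 21 oxidation genes, the 16 TCA cycle genes and 4 marker lists; diamonds are FLASH 3 and CONV 2, and the vertical scales differ. Both gene sets were highest in CONV 3 (0.84 and 0.77), where the brown and beige markers were highest too (1.81).

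The carnitine shuttle brings long-chain fatty acids into mitochondria. Its first enzyme has a liver-type form, Cpt1a, and a muscle-type form, Cpt1b, which is also the main form of brown fat. Cpt1a was the higher form as counted here. Per kb of exon its sham level was 11.2 ± 2.01 CPM, against 0.252 ± 0.167 for Cpt1b (SD, n = 3). The Cpt1b value may be understated, because 2744 of its 3372 exon bases lie under a read-through transcript. In replicate order, Cpt1a was at 91.9, 97.3 and 68.4 CPM in sham, 106, 99.1, 87.4 and 79.3 CPM after FLASH and 80.7, 68.2 and 41.9 CPM after CONV. CONV 3 was the lowest of all, at 0.488 of the sham mean, while the ranges of the 3 groups overlapped. The log2 fold change for CONV against sham was -0.43 ± 0.26 (± SE here and below) with all libraries and -0.50 ± 0.28 with 8 (edgeR, adjusted p = 0.607 and 0.492). For FLASH against CONV it was 0.55 ± 0.24 and 0.63 ± 0.29 (edgeR, adjusted p = 0.999 and 0.382). Of the 37 genes it was the only one with a positive value for FLASH against sham in all 10 libraries (0.11 ± 0.24).

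Cpt1b showed the opposite pattern, at 1.49, 0.423 and 0.639 CPM in sham, 0.515, 0.512, 0.810 and 0.618 CPM after FLASH and 0.833, 0.938 and 5.59 CPM after CONV. CONV 3 was 6.58 times the sham mean, sham 1 was the next highest, and all 4 FLASH libraries lay below all 3 CONV libraries. It was the only member without overlap in that comparison (1.12% of all genes lay below in this way). The log2 fold change for FLASH against CONV was -1.99 ± 0.73 with 10 libraries and -2.52 ± 0.78 with 8 (edgeR, adjusted p = 0.999 and 0.227). These levels rest on 13 to 152 counts per library. CONV 1, the library richest in muscle markers, had 26 counts. The annotation places 2744 of the 3372 exon bases of Cpt1b under a read-through transcript on the same strand, and the files list a ChkbCpt1b entry at 0 counts in every library. The effect of that on the Cpt1b count was not tested.

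Cpt2, which rebuilds the acyl-CoA inside the matrix, was at 112, 81.2 and 72.4 CPM in sham, 98.5, 77.7, 29.4 and 70.7 CPM after FLASH and 97.6, 33.9 and 207 CPM after CONV. The carrier Slc25a20, which exchanges acylcarnitine for carnitine, was at 70.1, 57.0 and 55.0 CPM in sham, 78.9, 74.5, 29.7 and 55.5 CPM after FLASH and 69.0, 23.7 and 127 CPM after CONV. For both, CONV 3 was above and the pair with high B cell markers below every sham library, and the groups overlapped. In the 8 libraries CONV exceeded sham on the log2 scale by 0.76 ± 0.32 for Cpt2 and 0.67 ± 0.26 for Slc25a20, neither past the test (edgeR, adjusted p = 0.359 and 0.322). With all 10 libraries these values were 0.35 ± 0.61 and 0.27 ± 0.55.

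The acyl-CoA dehydrogenases carry out the first step of each round and differ in the chain length they take. Acadm, for medium chains, was at 327, 283 and 278 CPM in sham, 348, 280, 80.3 and 231 CPM after FLASH and 249.5, 62.7 and 408 CPM after CONV. Acadl, for long chains, was at 376, 354 and 366 CPM in sham, 364, 348, 135 and 306 CPM after FLASH and 409.6, 111 and 555 CPM after CONV, and its sham libraries were close together (365 ± 10.8 CPM, SD, n = 3). CONV 1 and CONV 3 lay above every sham and FLASH library for Acadl, and CONV 2 and FLASH 3 were the lowest. Among the 8 libraries, 4 members lay above sham without overlap after CONV (Acadl, Etfdh, Ehhadh and Sucla2, against 13% of all genes), and with all 10 there was none. The log2 fold change of Acadl was 0.38 ± 0.15 for CONV against sham with 8 libraries (edgeR, adjusted p = 0.350) and -0.03 ± 0.54 with 10. Acadvl, for very long chains, was at 157, 94.8 and 109 CPM in sham, 124, 108, 54.7 and 113 CPM after FLASH and 114, 53.0 and 322 CPM after CONV. CONV 3 was the highest library, and with 8 libraries the log2 fold change for CONV was 0.84 ± 0.39 (edgeR, adjusted p = 0.404). Its exons share 1151 bases with Dvl2 on the opposite strand, and the sources used here do not give the strand setting of the counting. Acads, for short chains, had 62.3 ± 24.2 CPM in sham (SD, n = 3), where sham 1 was about as high as FLASH 1.

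Hadha and Hadhb encode the subunits of the trifunctional protein, which completes the round for long chains. Hadha was at 274, 174 and 176 CPM in sham, 216, 199, 124 and 185 CPM after FLASH and 199, 128 and 506 CPM after CONV. Hadhb was at 230.5, 133 and 144 CPM in sham, 170, 155, 89.0 and 153 CPM after FLASH and 166, 85.2 and 445 CPM after CONV. For this pair, which lie head to head on opposite strands, CONV 3 and then sham 1 were highest, and FLASH 3 and CONV 2 were lowest. With 8 libraries the log2 fold changes for CONV were 0.74 ± 0.36 and 0.83 ± 0.39 (edgeR, adjusted p = 0.431 and 0.409). Hadh, Acaa2 and Echs1, which act on shorter chains, had log2 fold changes of 0.06, 0.18 and 0.29 in the same fit. Hadh had the lowest ratio of any member in CONV 2, 0.175 of the sham mean.

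Electrons from the dehydrogenases pass through the electron transfer flavoprotein (Etfa and Etfb) to its oxidoreductase (Etfdh). Etfb was at 112, 67.1 and 74.0 CPM in sham, 77.0, 63.5, 25.2 and 55.7 CPM after FLASH and 64.2, 27.3 and 147 CPM after CONV. Sham 1 and CONV 3 were the highest, and the log2 fold change for FLASH was -0.61 ± 0.54 with 10 libraries and -0.38 ± 0.32 with 8 (edgeR, adjusted p = 0.998 and 1.000). Etfdh was at 140.1, 120.3 and 122 CPM in sham, 135, 138, 53.6 and 115 CPM after FLASH and 142, 42.1 and 196 CPM after CONV. Without the pair, its 2 CONV libraries lay above all sham and all FLASH libraries, with a log2 fold change of 0.39 ± 0.16 for CONV against sham (edgeR, adjusted p = 0.361) and -0.01 ± 0.52 with all 10. Etfa stayed within the sham range in CONV 3. Of the 1164 exon bases of Etfb, 678 are shared with Gm45233 and Mir7051 on the same strand. The effect of that on the Etfb count was not tested.

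Ppara, which encodes the receptor itself, was at 51.7, 29.3 and 25.4 CPM in sham, 23.8, 27.3, 6.14 and 25.1 CPM after FLASH and 24.4, 8.58 and 96.4 CPM after CONV. CONV 3 was the highest and sham 1 the next, and FLASH 3 had the lowest ratio to the sham mean of any member in any FLASH library, 0.173. The log2 fold change of FLASH against sham was -0.79 ± 0.76 with 10 libraries and -0.49 ± 0.47 with 8 (edgeR, adjusted p = 0.998 and 1.000). For FLASH against CONV it was -1.07 ± 0.76 and -1.24 ± 0.51 (edgeR, adjusted p = 0.999 and 0.343).

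Ehhadh, the bifunctional enzyme of peroxisomal oxidation, was at a similar level in CONV 1 and CONV 3, at 1.67 and 1.70 times the sham mean. It was at 62.8, 37.4 and 62.0 CPM in sham, 56.7, 51.8, 33.2 and 54.4 CPM after FLASH and 90.1, 19.2 and 91.9 CPM after CONV. CONV 1 and CONV 3 lay above every sham and FLASH library, and CONV 2 was the lowest of all. On the log2 scale, CONV against sham was 0.73 ± 0.21 with 8 libraries (edgeR, adjusted p = 0.201), the smallest adjusted p of the 37 there, and 0.31 ± 0.51 with 10 (edgeR, adjusted p = 0.788). For FLASH against CONV it was -0.73 ± 0.21 with 8 (edgeR, adjusted p = 0.199). For FLASH against sham it was -0.00 ± 0.19 with 8 and -0.14 ± 0.48 with 10 (edgeR, adjusted p = 1.000 and 0.998).

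Decr1 and Eci1, which prepare unsaturated fatty acids for oxidation, were above sham in CONV 3 and below it in CONV 2 and FLASH 3 like most of the list. Acot2, a mitochondrial thioesterase that releases fatty acid from acyl-CoA, was at 26.5, 22.3 and 19.4 CPM in sham, 25.5, 22.5, 12.7 and 25.1 CPM after FLASH and 19.0, 11.4 and 22.4 CPM after CONV. The 3 FLASH libraries other than FLASH 3 lay above CONV 1 and CONV 3, and it was the only one of the 37 above CONV without overlap in the 8 libraries (12.8% of all genes). The log2 difference was 0.25 ± 0.17 (edgeR, adjusted p = 0.570). Acot1, a near-identical copy, had 1 to 17 counts per library against 329 to 873 for Acot2, and reads that fit both may have been set aside.

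**Figure D4:**
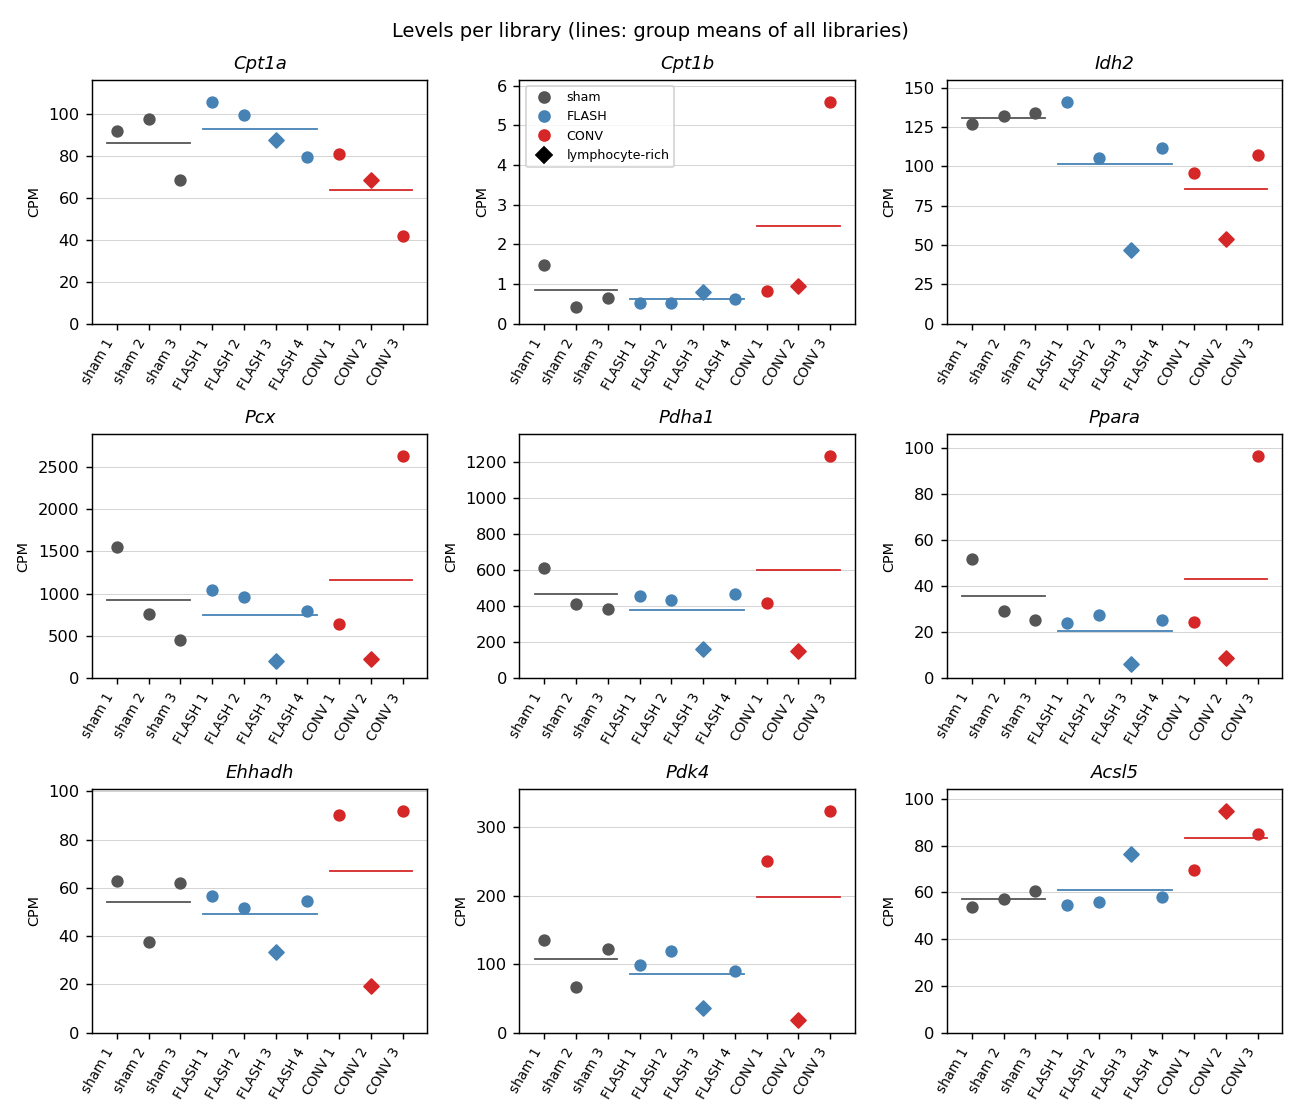
CPM in each library for 7 of the 37 genes and for Pdk4 and Acsl5; lines are group means over all libraries, diamonds are FLASH 3 and CONV 2, and the vertical scales differ. CONV 3 is the highest point for Cpt1b, Pcx, Pdha1, Ppara, Ehhadh and Pdk4 and the lowest for Cpt1a, and for Acsl5 all CONV points lie above all sham points.

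Pyruvate enters the cycle through the pyruvate dehydrogenase complex (Pdha1, Pdhb, Dld) as acetyl-CoA, or through pyruvate carboxylase (Pcx) as oxaloacetate. Pcx had the highest sham level per kb of exon of the 37 genes at 193 ± 119 CPM, a spread that includes that of Acadl (182 ± 5.40) and Pdha1 (125 ± 33.0). It was at 1545, 764 and 447 CPM in sham, 1044, 955, 203 and 788 CPM after FLASH and 639, 229 and 2622 CPM after CONV. CONV 3 was highest, sham 1 and sham 3 were far apart, and the groups overlapped. Its log2 fold change for CONV was 0.34 ± 0.90 with 10 libraries and 0.81 ± 0.62 with 8 (edgeR, adjusted p = 0.874 and 0.616). Pdha1, which encodes the alpha subunit of the first enzyme, was at 609, 409.6 and 384 CPM in sham, 455, 433, 160.1 and 467 CPM after FLASH and 419.6, 151 and 1231 CPM after CONV. CONV 3 was at 2.63 times the sham mean, FLASH 3 and CONV 2 were lowest, and the other FLASH libraries lay within the sham range. Its log2 fold change for CONV was 0.80 ± 0.40 with 8 (edgeR, adjusted p = 0.438). Its exons share 603 bases with Map3k15 on the opposite strand. Pdhb gave a log2 fold change of 0.77 ± 0.47 in the same fit (edgeR, adjusted p = 0.520).

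Dld, the shared dihydrolipoamide dehydrogenase, was one of 2 genes whose FLASH libraries all lay below all sham libraries. It was at 213, 199.8 and 217 CPM in sham, 189, 195, 77.4 and 178 CPM after FLASH and 213, 67.5 and 296 CPM after CONV, so the 4 FLASH libraries were below the lowest sham library, while CONV 1 was inside the sham range and CONV 3 above it. The other gene was Sucla2, the ATP-forming subunit of succinyl-CoA ligase, at 119, 115 and 125 CPM in sham, 105, 107, 41.4 and 93.6 CPM after FLASH and 128, 35.5 and 163 CPM after CONV. Such a gap below sham was seen in 2 of 37 genes and in 2.45% of all genes with 10 libraries, and in the same 2 genes and 4.64% of all genes with 8. The log2 fold changes for FLASH were -0.39 ± 0.47 and -0.17 ± 0.13 for Dld and -0.47 ± 0.48 and -0.24 ± 0.12 for Sucla2, with 10 and 8 libraries, and none passed (edgeR, adjusted p = 0.998 in both genes with 10 and 1.000 with 8). FLASH against CONV gave Sucla2 the smallest adjusted p of the 37 with 8 libraries, 0.169 (edgeR, -0.51 ± 0.13). In that comparison 8 members lay below CONV without overlap, Cpt1b, Acadl, Ehhadh, Etfdh, Dld, Idh3b, Sucla2 and Suclg2, against 13.3% of all genes.

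Citrate synthase (Cs) starts the cycle and was at 624, 410.4 and 376 CPM in sham, 504, 461, 206 and 429 CPM after FLASH and 360, 198 and 791 CPM after CONV. Idh3a, the catalytic subunit of the NAD-linked isocitrate dehydrogenase, was at 299.7, 209.9 and 214 CPM in sham, 268, 257, 77.2 and 207 CPM after FLASH and 186, 67.7 and 399.8 CPM after CONV. Both followed the general order, with CONV 3 above and the pair with high B cell markers below sham. Their log2 fold changes for CONV were 0.27 ± 0.34 and 0.26 ± 0.31 with 8 libraries (edgeR, adjusted p = 0.765 and 0.756). The subunits Idh3b and Idh3g had log2 fold changes of 0.39 and 0.27.

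Idh2, the NADP-linked mitochondrial isocitrate dehydrogenase, did not follow them. It was at 127, 132 and 134 CPM in sham, 141, 105, 47.0 and 112 CPM after FLASH and 95.8, 53.5 and 107 CPM after CONV. The sham libraries were close together (131 ± 3.50 CPM, SD, n = 3, a coefficient of variation of 2.67%, the smallest of the 37 genes). All 3 CONV libraries lay below them, CONV 3 included, as did FLASH 2 to 4, while FLASH 1 lay above. It was the only member below sham without overlap after CONV, in 10 libraries and in 8 (9.11% and 13.2% of all genes). The log2 fold change for CONV was -0.62 ± 0.38 with 10 and -0.39 ± 0.14 with 8 (edgeR, adjusted p = 0.607 and 0.296). Against sham, FLASH had log2 fold changes of -0.37 ± 0.36 and -0.14 ± 0.12 (edgeR, adjusted p = 0.998 and 1.000).

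Oxoglutarate dehydrogenase is built from Ogdh, Dlst and Dld. Ogdh was at 594, 502 and 479 CPM in sham, 619.9, 518, 274 and 496 CPM after FLASH and 473, 276 and 773 CPM after CONV, with the groups overlapping and a log2 fold change for CONV of 0.23 ± 0.22 in 8 libraries (edgeR, adjusted p = 0.702). Dlst had 0.35, and the succinyl-CoA ligase subunits Suclg1 and Suclg2 had 0.26 and 0.37. Fumarase (Fh1) and mitochondrial malate dehydrogenase (Mdh2) close the cycle and had 0.44 and 0.36. None of these passed. For FLASH against sham these 6 genes had log2 fold changes from -0.06 to 0.16.

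Other genes of the pathway that are not among the 37 were read from a list of 73, of which 72 were tested. None passed in any comparison in edgeR with 10 or with 8 libraries. With 10 libraries, an unadjusted p under 0.05 was found for 0 genes with FLASH, 3 with CONV, and 5 between the irradiation modes (background 0.648%, 5.82% and 2.97%), and with 8 there were 2, 12 and 9 (background 2.52%, 13.3% and 13.7%). With 8 libraries, those that DESeq2 passed included Slc27a1, Acsl5 and Pdk4 in CONV against sham and Acsl3, Acsl5 and Pdk4 in FLASH against CONV. In these contrasts DESeq2 passed 663 and 667 of all 15252 genes.

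Pdk4, the kinase that shuts pyruvate dehydrogenase and is itself a target of PPAR receptors, was at 136, 66.7 and 122 CPM in sham, 99.4, 119, 36.2 and 89.7 CPM after FLASH and 250, 18.7 and 324 CPM after CONV. CONV 1 and CONV 3 were above every other library and CONV 2 was lowest. Its log2 fold change for CONV was 1.39 ± 0.28 with 8 libraries and 0.87 ± 0.82 with 10 (edgeR, adjusted p = 0.110 and 0.665). Acsl5, a long-chain acyl-CoA synthetase, was at 53.9, 57.2 and 60.4 CPM in sham, 54.6, 56.0, 76.3 and 58.0 CPM after FLASH and 69.8, 94.9 and 85.0 CPM after CONV. All CONV libraries lay above all sham libraries (log2 fold change 0.54 ± 0.18, edgeR, adjusted p = 0.607), as they did for 8.58% of all genes.

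The fatty acid transporter Slc27a1 was at 468, 275 and 373 CPM in sham, 661, 570.4, 146 and 694 CPM after FLASH and 695, 161 and 1132 CPM after CONV. In the 8 libraries, all FLASH and both CONV libraries lay above sham, with log2 fold changes of 0.78 ± 0.24 and 1.28 ± 0.27 (edgeR, adjusted p = 1.000 and 0.116). The coactivator Ppargc1a was at 32.3, 32.7 and 48.8 CPM in sham, 22.5, 21.6, 11.8 and 29.2 CPM after FLASH and 30.2, 10.3 and 47.0 CPM after CONV, and all FLASH libraries lay below all sham libraries, at a log2 fold change of -0.83 ± 0.47 with 10 and -0.64 ± 0.23 with 8 (edgeR, adjusted p = 0.998 and 1.000). Acsl3 and Pdk3 likewise did not overlap with sham after FLASH, with log2 fold changes of -0.42 and 0.53 in 8 libraries. With 10 libraries, 2 of the 72 genes lay above and 4 below sham without overlap after FLASH (2.46% and 2.45% of all genes). After CONV, 2 lay above and 2 below (8.58% and 9.11%). With 8 libraries, 3 lay above and 4 below after FLASH (5.14% and 4.64%), and 6 and 2 after CONV (13% and 13.2%). The synthetase Acsl1, Sdha of the TCA cycle, Mdh1, the cytosolic malate dehydrogenase, and the receptor gene Pparg had log2 fold changes for CONV with 8 libraries of 0.11, 0.36, 0.38 and 0.01. Their log2 fold changes for FLASH lay between -0.16 and 0.05. Got1, Ogdhl and Bdh1, also among the smallest p, overlapped with sham in every comparison with it. Got1 had log2 fold changes of 1.58 for CONV with 10 libraries and 1.41 with 8, with CONV 3 within the sham range.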

How the data were processed

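Total RNA of inguinal fat was measured in 10 libraries (3 sham, 4 FLASH, 3 CONV), made with ribosomal depletion and a stranded kit per the labels' protocols. As deposited by the authors, each library has a whole-number read count for each gene symbol, not normalized, and kallisto 0.5.0 and mm10 are named per the submitters' processing notes. The sources used here do not give the aligner, strand setting or annotation. Entries that name no gene held 52.0% to 69.6% of all entries and were left out. The depth was 22.4 M to 36.0 M gene counts per library (M, 1e6), where 3 counts, a floor that covers counting error only, equal 0.0833 to 0.134 CPM.

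Genes were filtered with filterByExpr, scaled by TMM and fitted with the quasi-likelihood test of edgeR 4.0.16 (R 4.3.3), with 1 mean per group, two-sided tests and Benjamini-Hochberg adjustment over all genes tested (threshold 0.05). DESeq2 1.42.0, limma 3.58.1, other scalings and filters, each library left out, and marker levels as covariates were tried as alternatives. List means use log2 CPM with a prior count of 2. A library counted as rich in lymphocytes where its B cell markers exceeded those of every sham library by more than 3 on the log2 scale. Levels per kb use exon lengths of the GENCODE M21 annotation, whose build is mm10.

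The 37 genes and all lists were chosen with earlier results of these data known. Named with values were 14 fixed members, the 3 members with the smallest p per direction and comparison with 10 and with 8 libraries, 8 fixed other genes of the pathway and the 3 of those with the smallest p per comparison. Some genes that this rule names are not reported here.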

Additional observations from a re-analysis of the deposited data

Results flagged for a closer look

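Within the 4 FLASH libraries, 4 of the 37 genes had 1 library far from the rest by Dixon's criterion for groups of 4, and in each it was FLASH 3 that was low. Ppara was at 6.14 CPM there, with the other 3 FLASH libraries at 23.8 to 27.3 CPM. Dlst was at 136 CPM, Dld at 77.4 CPM and Pdha1 at 160 CPM, all below the lowest sham library. The gap took 0.835 to 0.889 of the range. Chance alone gives such a value in about 1 in 20 independent groups. The 37 genes share the same 4 libraries and are not independent, and the share among all genes was not counted. FLASH 3 lay below every sham library for 42.6% of all genes. FLASH 3 is the FLASH library with high B cell markers, and the same genes were within or near the sham range in the other 3.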

How the results depend on the processing

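With all 10 libraries, no member passed in any comparison under any scaling, filter, tool or left-out library that was run. DESeq2 passed 66 genes of all tested for CONV against sham and 40 for FLASH against CONV, where edgeR passed 0. Without FLASH 3 and CONV 2, edgeR passed 6 and 2 genes, limma voom 4 and 3, and DESeq2 663 and 667, and 4 for FLASH against sham. DESeq2 then passed 1 and 3 members and 4 and 4 other pathway genes in these 2 comparisons. The members' median for CONV against sham was 0.362 in edgeR, 0.375 in DESeq2 and 0.331 in limma voom without the pair, against -0.01 with all libraries. With all libraries and the B cell or adipocyte level as covariate it was 0.352 and 0.302. With the muscle level as covariate, without the pair, it was 0.407, and 49 and 6 genes passed for CONV against sham and FLASH against CONV.

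With the brown and beige level as covariate, an alternative chosen after seeing the data, without the pair, the medians were 0.266 for FLASH against sham and 0.181 for FLASH against CONV. Genes passed numbered 333 for CONV against sham and 341 for FLASH against CONV, among them 2 and 1 other pathway genes.

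Leaving out 1 library at a time, with and without the pair, the median ran from -0.420 to 0.143 for FLASH against sham (without FLASH 1, and without the pair and sham 1). It ran from -0.557 (without CONV 3) to 0.703 (without the pair and CONV 1) for CONV against sham, and from -0.702 (without the pair and CONV 1) to 0.326 (without CONV 3) for FLASH against CONV. Genes passed ran from 0 to 1134 and from 0 to 1025 in the 2 CONV contrasts, members from 0 to 11 and 0 to 15, and other pathway genes from 0 to 17 and 0 to 16, each highest without the pair and CONV 1. The cause of these differences was not tested. With the replicate block, 0 genes passed and the medians were -0.24, -0.03 and -0.23. Same-numbered libraries correlated at -0.756 to 0.261. The values for FLASH against CONV in replicates 2 and 3, -0.756 and -0.607, include CONV 2 or FLASH 3, which stood apart. These correlations therefore cannot show whether the numbers pair the libraries. Of 2924 values of named genes under alternatives, 365 had another sign than the main value, in which no named gene had passed. Those that newly passed the threshold include fits with 1 CONV library left, so their number is not given.

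These limits hold throughout. With 2 to 4 libraries a group, and the spread of CONV set by single libraries, small differences were not detectable. Cpt1b rests on at most 152 counts a library.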
